A study of Sus scrofa with 6 samples.

Results

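RAB small GTPases are the molecular switches that give each membrane compartment its identity and direct vesicle budding, transport, tethering and fusion. A RAB is active when bound to GTP: exchange factors load the GTP, GTPase-activating proteins end the active state, effectors read it, and GDP dissociation inhibitors extract the prenylated, inactive protein from membranes. In oocytes RAB proteins take part in Golgi transport, endosome traffic and the movement and release of cortical granules. The members were the genes whose symbol is RAB followed by a number and at most a letter and a further digit, which gave 59 of the 29861 genes in the table. By a fixed list of routes, 27 were classed as secretory, 14 as endocytic, 9 as recycling and 9 as other. RAB29, a Golgi RAB, was left among the others, and the class medians depend on this list.

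Porcine oocytes of 3 groups were sequenced as mRNA, with 2 samples in each group: oocytes matured without heat stress (control), oocytes cultured at an elevated temperature for the first 24 h (heat stress), and oocytes given nicotinamide mononucleotide (NMN), a precursor of the coenzyme NAD+, during the heat exposure (heat stress+NMN). Oocytes came from ovaries of slaughtered pigs and were pooled, and neither breed nor age is stated. The labels give the germinal vesicle stage and 24 hours, whereas the methods say that metaphase II oocytes were collected, and the NMN dose of the sequenced oocytes is not in the labels. Nothing in the labels says that the samples of a group came from separate cultures, so P-values measure the spread between these samples, which may be technical.

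Levels were deposited as FPKM, a fragment count scaled to transcript length and library size, so that levels of different RABs can be set side by side. A level here is relative to the rest of the RNA, so that fewer cells of a type and less RNA per cell cannot be told apart. Read totals were not used here. In the lowest values, which step by whole fragments, 1 fragment was worth from 0.865 (control 2) to 1.37 (heat 1) times its value in control 1. The summed FPKM was also lowest in control 2 (163929) and highest in heat 1 (290136). The value of a fragment therefore does not rank the libraries by depth. Genes above 0 numbered 17044 and 17163 in control, 15712 and 16440 in heat stress, and 16221 and 15707 in heat stress+NMN. Mitochondrial genes held 66.4% and 61.7% of the summed FPKM in control, 62.4% and 71.6% in heat stress, and 74.2% and 74.7% in heat stress+NMN. The part of these differences in the RAB values was not tested. Of 14 oocyte markers 12 reached a mean of 1 FPKM, and their summed level was 3409 and 3640 FPKM in control, 3304 and 3311 in heat stress, and 3102 and 2852 in heat stress+NMN. Of 18 cumulus and granulosa cell markers in the table only GREM1 and INHBA reached 1 FPKM. AMH, AMHR2, KRT8 and KRT18 were at 0 in every sample, and the summed level of the list was 20.2 and 15.9 FPKM in control, 14.5 and 10.8 in heat stress, and 8.88 and 15.4 in heat stress+NMN. INHBA, a granulosa cell gene that was the highest of the list in every sample, was called lower in heat stress+NMN against control (log2 -1.02, adjusted P = 0.109). GREM1, a cumulus gene, had 2.48 and 1.73 FPKM in control, 3.27 and 2.87 in heat stress, and 3.58 and 3.55 in heat stress+NMN, and was called higher in both comparisons with control (log2 0.40 and 0.57, adjusted P = 0.215 and 0.0531), with its part in the RAB values not tested. The INHBA call was lost without control 1 (-0.87), control 2 (-1.16) or NMN 1 (-0.49). The GREM1 call under heat stress was lost without control 2 (0.22), heat 1 (0.33), heat 2 (0.47), NMN 1 or NMN 2 (0.40 each), and that in heat stress+NMN against control without NMN 1 (0.56) or NMN 2 (0.57).

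The 3′ untranslated regions (UTRs) of the RAB mRNAs that the comparisons turn on are printed here because stored maternal mRNAs in oocytes are regulated through such tails. Each line holds 30 bases of the annotated 3′ UTR, 5′ to 3′ on the strand of the gene, from the Sscrofa11.1 genome with its RefSeq annotation. The capitals mark the cytoplasmic polyadenylation element, searched as TTTTAT or TTTTAAT on the sense strand alone, that lies nearest to the annotated transcript end.
RAB6A, chr9:8137958-8137987, minus strand: ttgactcttttgTTTTATtttgacatggca
RAB2A, chr4:72800679-72800708, minus strand: tcagtgtggtggTTTTATccttctttttct
RAB33B, chr8:87545513-87545542, minus strand: ttttctacatgtTTTTATttttaaaaagaa
RAB10, chr3:112842385-112842414, minus strand: ttgaaacatgaaTTTTATttgcttaatatt
RAB14, chr1:261228271-261228300, minus strand: attctttcaatTTTTAATccctggagagct
RAB5B, chr5:21392485-21392514, plus strand: aaccttagttttTTTTATttcccagctctt
RAB5C, chr12:20635360-20635389, plus strand: ttaagtcacttTTTTAATatatatgatctg

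Among the RAB mRNAs printed above, RAB6A and RAB2A carried this element closest to their ends, at 69 and 74 bases. They had 8 and 4 copies in UTRs of 2013 and 1230 bases. The last copy lay 171 bases from the end in RAB14, 207 in RAB10, 227 in RAB5B, 419 in RAB33B and 575 in RAB5C. RAB5C had 1 copy in 804 bases, and RAB15 had 0 in 2498 bases, so that no line is shown for it. In the last 100 bases, 7 of the 23 RAB mRNAs tested below (30.4%) held the element, against 25.7% of the 3913 tested genes with such a tail. Beside RAB6A and RAB2A these were RAB9A, RAB29, RAB18, RAB21 and RAB8B, which were not called in any comparison. The polyadenylation signal AATAAA, which TTTTAAT can overlap, was in the last 100 bases of 14 RAB mRNAs (60.9%) and of 68.9% of these genes. The RAB mRNAs had longer 3′ UTRs, with a median of 2287 bases against 1089.5. A match is a description of the sequence and no measure of use.

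Of the 59 RAB genes, 23 reached a mean of 1 FPKM over the 6 samples: 11 secretory, 6 endocytic, 3 recycling and 3 other. That is 39.0% of the RAB genes, against 15.8% of all genes in the table. The median of their means was 3.24 FPKM, close to the 3.15 FPKM of all 4713 genes at this level. The 23 held 92.6% of the summed RAB FPKM, and 8 of them had a mean of 5 FPKM or more. The sum over all RAB genes was 97.8 and 94.7 FPKM in control, 105.8 and 98.4 in heat stress, and 110.7 and 104.3 in heat stress+NMN. Heat 1 stood apart in its total outside the mitochondrial genes, at 109125 FPKM against 57865 to 62744 in the other 5 samples, so that the RAB genes held 0.097% of that total in heat 1 and 0.151% to 0.179% in the others.

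The 3 highest were all recycling RABs: RAB35, RAB14 and RAB15, with 27.6% of the summed RAB level among them. Their means were 10.1, 9.76 and 8.34 FPKM. RAB22A (7.94 FPKM), which acts on early endosomes, and RAB9A (6.70 FPKM), which returns cargo from late endosomes to the Golgi apparatus, followed. The leading secretory members were RAB6A (6.59 FPKM), a regulator of retrograde transport at the Golgi, and RAB2B (6.55 FPKM), of the pair that acts between endoplasmic reticulum and Golgi. The ranges of these neighbours overlapped. RAB35, for example, ranged from 8.94 to 11.6 FPKM and RAB14 from 6.64 to 12.2 FPKM over the samples. By class, the median mean was 9.76 FPKM for the recycling members, 3.24 FPKM for the secretory, 2.14 FPKM for the endocytic and 1.5 FPKM for the others.

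**Figure D1:**
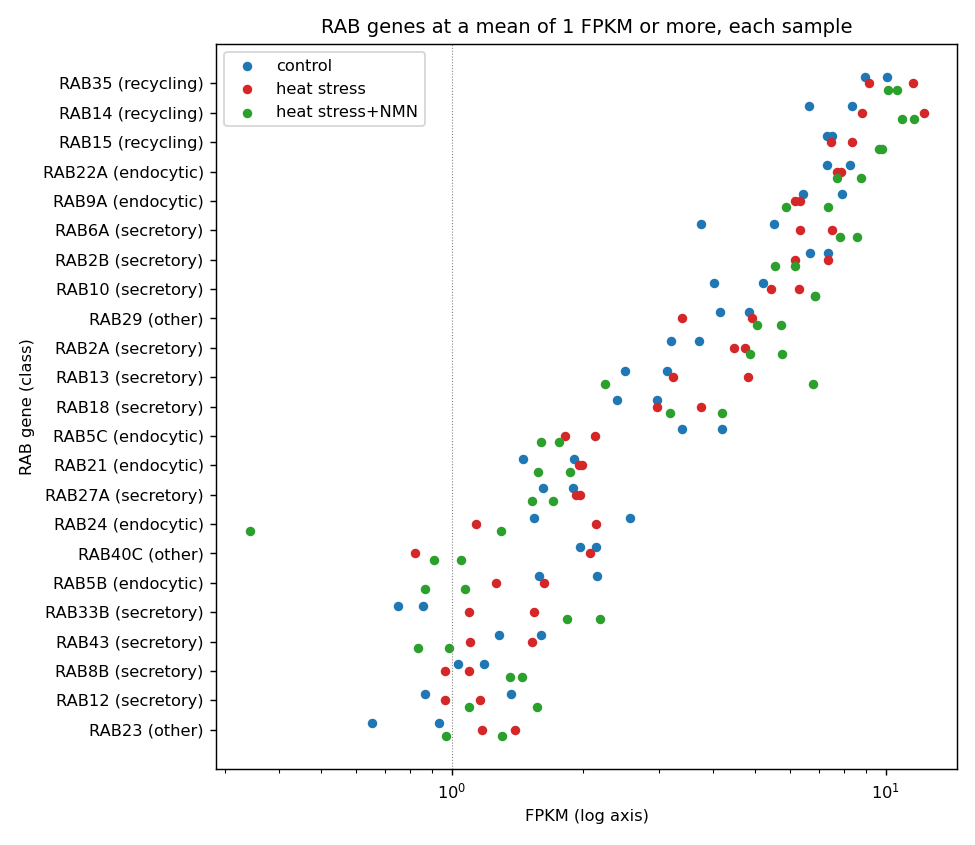
FPKM (log axis) of the 23 RAB genes with a mean of 1 FPKM or more, ordered by mean, with 1 point for each of the 2 samples of the control, heat stress and heat stress+NMN groups and the class in brackets. RAB35, RAB14 and RAB15 lead, and the dotted line marks 1 FPKM, near which RAB23 (mean 1.07 FPKM) is the lowest shown.

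Each comparison was tested with limma on log2(FPKM + 1), and fold changes are differences on that scale, which understates the change of low genes. Heat stress against control asks what the heat exposure changed. RAB2A and RAB6A rose and RAB5C fell at an unadjusted P under 0.05, and 20 of the 23 tested RABs did not pass. The background was 12.7% of the 4713 tested genes called higher and 10.1% called lower, so that 2 and 1 of 23 were no larger a share than among all genes. In heat stress+NMN against heat stress, the comparison of NMN itself, RAB33B alone was called, as higher, against a background of 7.15% higher and 6.45% lower. Over all genes that split was 337 higher and 304 lower, and it was 218 and 310 with quantile normalization. In heat stress+NMN against control, 6 RABs were higher (RAB2A, RAB6A, RAB10, RAB14, RAB15 and RAB33B) and 2 lower (RAB5B and RAB5C), against 25.6% higher and 15.7% lower among all genes. After Benjamini-Hochberg adjustment over all tested genes no RAB passed in the first and second comparison, where the smallest adjusted P of a RAB was 0.118 and 0.360. In the third, RAB2A, RAB6A and RAB33B were higher and RAB5C lower, against 12.4% higher and 9.17% lower among all genes. The 3 comparisons share their samples pairwise, so their values are not independent of each other. The smallest P that an exact permutation of 2 samples against 2 can give is 0.333, so that single genes could be tested only through the fit across all genes.

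Grouped by route, the secretory members had positive median log2 fold changes, of 0.24 in heat stress against control, 0.17 in heat stress+NMN against heat stress and 0.34 in heat stress+NMN against control. The recycling members also had positive medians (0.11, 0.10 and 0.35), and the endocytic members negative ones (-0.19, -0.14 and -0.32). Over all tested genes the medians were 0.05, 0.08 and 0.11. Among the members at a mean of 1 FPKM or more, no secretory or recycling RAB was called lower and no endocytic RAB was called higher in any of the comparisons. The counts called were 2, 1 and 4 of 11 secretory, 0, 0 and 2 of 3 recycling and 1, 0 and 2 of 6 endocytic members, in the same order of comparisons, with 0 of 3 others. Among all tested genes 12.7%, 7.15% and 25.6% were called higher and 10.1%, 6.45% and 15.7% lower. At these shares, sets this small would give few opposite calls. In the fit down to 0.1 FPKM, the calls of members below 1 FPKM went the other way. Secretory RAB3A and recycling RAB4B were lower under heat stress. RAB4B and recycling RAB11B were lower, and endocytic RAB31 higher, in heat stress+NMN against control, and RAB31 also against heat stress. The secretory median under heat stress was 0.11 without heat 1, 0.14 without control 2 and 0.13 with a GC correction, with NMN against heat stress it was 0.025 without NMN 1 and 0.10 without heat 2, and in heat stress+NMN against control it was 0.19 without NMN 1 and 0.046 with the GC correction. With members down to 0.1 FPKM included, the secretory medians were 0.095, 0.020 and 0.096. The recycling median with NMN against heat stress was -0.11 without heat 2, and the endocytic median under heat stress was -0.0058 without control 2 and -0.051 without heat 1. As a share of the summed RAB level, secretory members held 37.7% and 34.8% in control, 40.2% and 40.1% in heat stress, and 42.9% and 39.7% in heat stress+NMN. Endocytic members held 24.1% and 29%, then 21.2% and 23.3%, then 20.1% and 20.4%. The secretory and endocytic shares did not overlap between control and either heated group, and no test was made of the shares. Groups did not overlap for 11, 13 and 17 of the 23 tested RABs in the 3 comparisons. The share over all genes was not counted, so that these counts cannot be read as a trait of the RABs. For 2 samples against 2, full separation has an exact permutation P of 0.333. Recycling members held 30.2% and 27.4%, then 31.2% and 28.7%, then 29.9% and 31.7%, which overlapped.

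**Figure D2:**
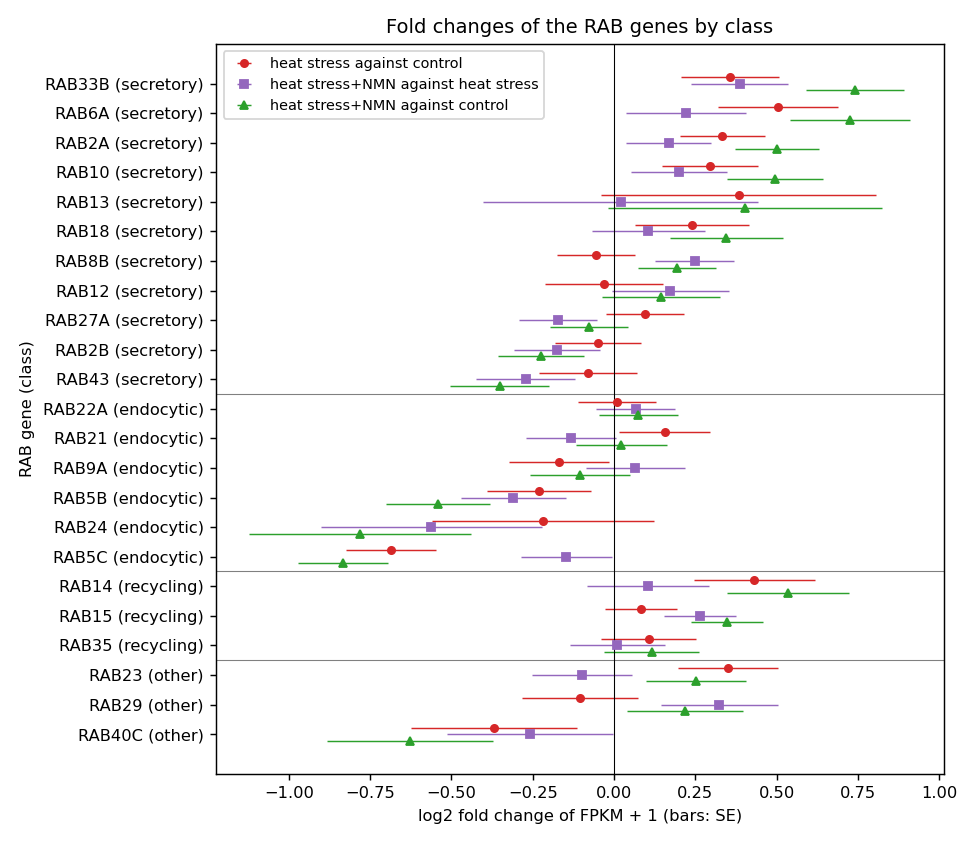
Log2 fold change of FPKM + 1 with its standard error for the 23 tested RAB genes, grouped by class and ordered within a class by heat stress+NMN against control, with 1 symbol for each of the 3 comparisons. In heat stress+NMN against control, RAB33B, RAB6A and RAB2A lie highest among the secretory members and RAB5C (-0.83) lowest among the endocytic. RAB5C stands at -0.69 under heat stress. With NMN against heat stress it stands at -0.15, where RAB24 (-0.56) and RAB5B (-0.31) lie lower.

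Among the secretory RABs, RAB6A (chromosome 9, 8137901 to 8199212, minus strand) was called in both comparisons with control. Its FPKM was 5.52 and 3.75 in control, 7.5 and 6.33 in heat stress, and 7.84 and 8.60 in heat stress+NMN. Every heated sample lay above both controls, and both NMN samples lay above both samples of heat stress alone. The log2 fold change was 0.50 (SE 0.19, adjusted P = 0.201) in heat stress against control and 0.73 (adjusted P = 0.0466) in heat stress+NMN against control. It was 0.22 (adjusted P = 0.549) between the heated groups, which missed the threshold. The call under heat stress alone was lost without control 2 (log2 0.28) or heat 1 (0.40), and also without NMN 1 or NMN 2, which leave the fold change at 0.50 and alter only the shared spread, whereas the unadjusted call in heat stress+NMN against control held in all 16 alternative settings.

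RAB2A (chromosome 4, 72800617 to 72882183, minus strand), which acts between the endoplasmic reticulum and the Golgi, had 3.20 and 3.71 FPKM in control, 4.74 and 4.48 in heat stress, and 5.76 and 4.87 in heat stress+NMN. The groups followed each other without overlap. The log2 fold change was 0.33 (SE 0.13, adjusted P = 0.217) under heat stress, 0.17 (adjusted P = 0.526) with NMN against heat stress, and 0.50 (adjusted P = 0.0485) in heat stress+NMN against control. The heat stress call was lost without control 1 (log2 0.25), heat 1 (0.30) or heat 2 (0.37), and without NMN 1 or NMN 2 (0.33 each), and the call in heat stress+NMN against control without NMN 1 (0.40). Its paralogue RAB2B had 7.35 and 6.68 FPKM in control, 6.17 and 7.36 in heat stress, and 5.55 and 6.16 in heat stress+NMN, with log2 fold changes of -0.05, -0.18 and -0.23 that did not pass. The sum of both was nearly level, between 10.4 and 11.8 FPKM in all samples. RAB2A made up 30.4% and 35.7% of it in control, 43.4% and 37.8% in heat stress, and 50.9% and 44.2% in heat stress+NMN. The coding sequences were 75.2% identical, with a longest shared run of 26 bases. The listed locus of RAB2B also spans METTL3 and TOX4.

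RAB33B (chromosome 8, 87545106 to 87570545, minus strand), a Golgi RAB that also binds the autophagy factor ATG16L1, was low in control, at 0.856 and 0.751 FPKM. It had 1.54 and 1.09 FPKM in heat stress and 2.2 and 1.84 in heat stress+NMN. The 3 groups did not overlap. The log2 fold change was 0.36 (SE 0.15, adjusted P = 0.233) under heat stress, which was not called, 0.39 (adjusted P = 0.360) with NMN against heat stress and 0.74 (adjusted P = 0.0303) in heat stress+NMN against control. The call for NMN against heat stress was lost without control 1 or control 2 (log2 0.39 each), heat 2 (0.24), NMN 1 (0.30) or NMN 2 (0.47). The listed locus also spans NAA15 and LOC102162389, and whether counting used strand is not given in the sources used here.

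RAB10 (chromosome 3, 112842190 to 112924188, minus strand) carries cargo from the Golgi to the plasma membrane. Its FPKM was 5.21 and 4.02 in control, 5.43 and 6.30 in heat stress, and 6.86 and 6.88 in heat stress+NMN, with both NMN samples above all others. It was higher in heat stress+NMN against control by 0.50 on the log2 scale (SE 0.15, adjusted P = 0.0642). The call was lost without control 2 (log2 0.34), NMN 1 (0.50) or NMN 2 (0.49).

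The 6 other tested secretory RABs did not pass in any comparison. RAB13, a RAB of junctional and Golgi traffic with a mean of 3.79 FPKM, was split between the NMN samples, at 6.79 and 2.25 FPKM, so that its SD of 3.21 exceeded any difference of its means. RAB18, which sits on the endoplasmic reticulum and lipid droplets, ranged from 2.40 to 4.20 FPKM. RAB27A, a RAB of secretory granules, lay between 1.53 and 1.97 FPKM in all samples, with group means of 1.76, 1.95 and 1.62 FPKM. RAB43 (mean 1.22), RAB8B (mean 1.18) and RAB12 (mean 1.17) stayed between 0.837 and 1.60 FPKM in every sample. RAB43 had 0.986 and 0.837 FPKM with NMN against 1.60 and 1.28 in control, at a log2 fold change of -0.35 (adjusted P = 0.141).

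Among the endocytic RABs, RAB5C (chromosome 12, 20613991 to 20635952, plus strand) had the lowest log2 fold change of the tested RABs in both comparisons with control. The RAB5 proteins drive homotypic fusion of early endosomes. Its FPKM was 3.40 and 4.20 in control, 2.13 and 1.82 in heat stress, and 1.60 and 1.77 in heat stress+NMN. Both controls lay above all 4 heated samples, and the NMN samples lay just below those of heat stress alone. The log2 fold change was -0.69 (SE 0.14, adjusted P = 0.118) under heat stress and -0.83 (adjusted P = 0.0237) in heat stress+NMN against control. Between the heated groups it was -0.15 (adjusted P = 0.597), which missed the threshold. Both unadjusted calls held in all 15 alternatives, with log2 fold changes from -0.91 to -0.47 and from -1.12 to -0.56.

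RAB5B (chromosome 5, 21373333 to 21392729, plus strand) had 2.16 and 1.59 FPKM in control, 1.26 and 1.63 in heat stress, and 0.868 and 1.07 in heat stress+NMN. The NMN samples were below all others, while control and heat stress overlapped. Its log2 fold change in heat stress+NMN against control was -0.54 (SE 0.16, adjusted P = 0.0636), a call that was lost without control 1 (-0.40) or NMN 1 (-0.47). The listed locus also spans LOC110260685. The third member, RAB5A, was below the level for testing and went the other way in its values, at 0.538 and 0.280 FPKM in control, 0.954 and 0.647 in heat stress, and 0.697 and 0.714 in heat stress+NMN. The sum of the 3 RAB5 genes was 6.10 and 6.07 FPKM in control, 4.35 and 4.09 in heat stress, and 3.17 and 3.55 in heat stress+NMN. RAB5C held 55.7% and 69.2% of that sum in control and 44.4% to 50.6% in the heated samples, and RAB5A 8.82% and 4.60% in control and 15.8% to 22% in the heated samples. RAB5B and RAB5C were 76.5% identical in coding sequence with a longest shared run of 38 bases.

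**Figure D3:**
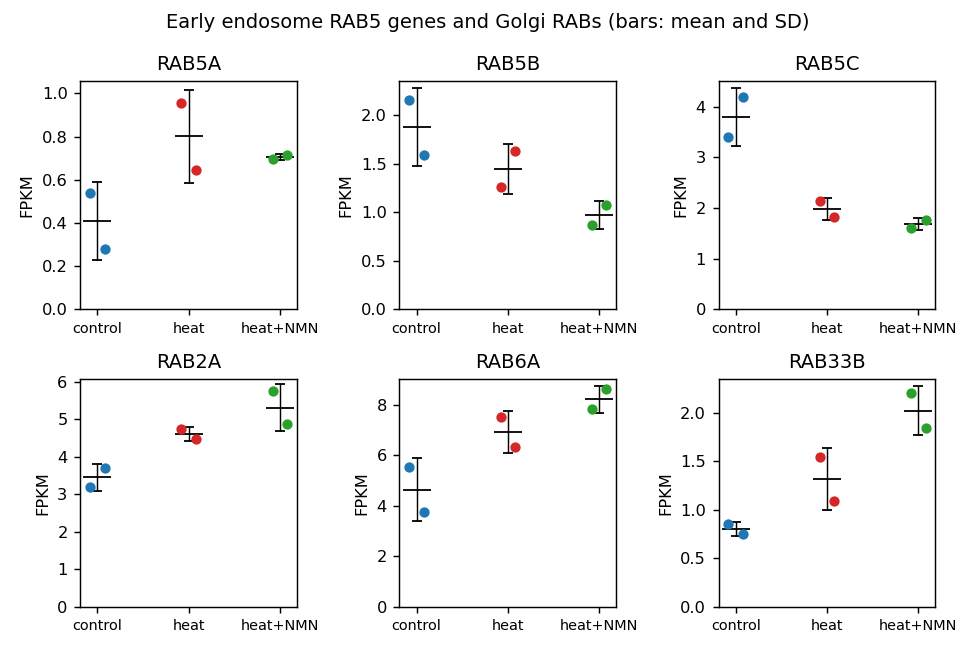
FPKM in each sample (points) with the group mean and SD (bars) for the early endosome genes RAB5A, RAB5B and RAB5C and the Golgi genes RAB2A, RAB6A and RAB33B, in control, heat stress and heat stress+NMN, 2 samples a group. RAB5C stands at 3.40 and 4.20 FPKM in control and at 2.13 or less in every heated sample, while RAB2A, RAB6A and RAB33B are lowest in control.

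The other 4 endocytic RABs did not pass in any comparison. RAB22A ranged from 7.30 to 8.75 FPKM, and RAB9A ranged from 5.90 to 7.94 FPKM. RAB21, which follows integrins into endosomes, stayed between 1.46 and 2.0 FPKM. RAB24, linked to autophagy, had 1.54 and 2.58 FPKM in control, 1.14 and 2.14 in heat stress, and 0.342 and 1.30 in heat stress+NMN. Its samples were widely spread, and the log2 fold change in heat stress+NMN against control was -0.78 (SE 0.34, adjusted P = 0.144). The listed locus of RAB24 also spans NSD1.

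Among the recycling RABs, RAB14 (chromosome 1, 261228112 to 261256913, minus strand), which links the Golgi with early and recycling endosomes, had 8.37 and 6.64 FPKM in control, 12.2 and 8.83 in heat stress, and 11.6 and 10.9 in heat stress+NMN. All heated samples were above both controls, and the heated groups overlapped. The log2 fold change was 0.43 (SE 0.19, adjusted P = 0.240) under heat stress, which missed the threshold, and 0.53 (adjusted P = 0.0895) in heat stress+NMN against control. The latter was lost without control 2 (log2 0.39), NMN 1 (0.49) or NMN 2 (0.58).

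RAB15 (chromosome 7, 89015041 to 89039482, minus strand), a RAB of the recycling endosome, had 7.31 and 7.5 FPKM in control, 7.47 and 8.37 in heat stress, and 9.77 and 9.62 in heat stress+NMN. The NMN samples stood above the other 4, which overlapped. Its log2 fold change was 0.26 (adjusted P = 0.368) with NMN against heat stress and 0.35 (SE 0.11, adjusted P = 0.0722) in heat stress+NMN against control. The latter was lost without control 1 (log2 0.33), NMN 1 (0.34) or NMN 2 (0.36), and with quantile normalization (0.28). The listed locus also spans LOC102168171.

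RAB35 (chromosome 14, 40124318 to 40141261, minus strand), which returns endocytosed cargo to the plasma membrane, had 10.1 and 8.94 FPKM in control, 11.6 and 9.14 in heat stress, and 10.1 and 10.6 in heat stress+NMN. The control and heat stress samples overlapped, and no difference passed, with log2 fold changes of 0.11, 0.0097 and 0.12 (SE 0.15). Its listed locus also spans BICDL1. Of the 3 members in no class, RAB29, a Golgi RAB tied to the kinase LRRK2, ranged from 3.39 to 5.73 FPKM. RAB23, which acts against Hedgehog signalling, ranged from 0.654 to 1.40 FPKM. RAB40C, which joins a ubiquitin ligase through its SOCS box, had 1.97 and 2.15 FPKM in control, 2.08 and 0.822 in heat stress, and 0.910 and 1.05 in heat stress+NMN. Heat 1 sat with the controls and heat 2 with the NMN samples, and the log2 fold change in heat stress+NMN against control was -0.63 (SE 0.26, adjusted P = 0.124).

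The 36 RAB genes below 1 FPKM included well known members. Just outside the threshold was RAB11B, a RAB of recycling endosomes with a mean of 0.962 FPKM, and just inside was RAB23 with 1.07 FPKM. RAB11B had 1.67 and 1.23 FPKM in control, 1.05 and 0.741 in heat stress, and 0.418 and 0.671 in heat stress+NMN, with groups that did not overlap. RAB3A and RAB3B, RABs of regulated exocytosis, had means of 0.761 and 0.749 FPKM. RAB3A had 1.03 and 1.15 FPKM in control, 0.491 and 0.457 in heat stress, and 0.946 and 0.492 in heat stress+NMN. RAB3B ranged from 0.520 to 0.914 FPKM, RAB3D from 0.173 to 0.594 FPKM and RAB3C from 0.0686 to 0.105 FPKM. RAB27B, with a mean of 0.0368 FPKM, was far below RAB27A, which held 96.7% to 98.8% of the sum of that pair. Of the 36, 16 had a mean of at least 0.1 FPKM, 20 were below it, and RAB17, RAB34 and RAB40B were listed at 0 in all samples. RAB1A, RAB1B, RAB11A and RAB32 have annotated models without a UTR, and all were below 1 FPKM, with the highest mean at 0.692 for RAB11A.

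When all 11651 genes with a mean of at least 0.1 FPKM were tested, the 16 RABs between 0.1 and 1 FPKM gave few calls. Among all these genes 7.02% were called higher and 8.99% lower under heat stress, 4.33% and 5.64% with NMN against heat stress, and 13.3% and 14.5% in heat stress+NMN against control. RAB3A (log2 -0.50, adjusted P = 0.248) and RAB4B (-0.60, adjusted P = 0.198) were lower under heat stress. RAB4B, a RAB of fast recycling, had 0.791 and 0.615 FPKM in control, 0 and 0.258 in heat stress, and 0.0994 and 0.195 in heat stress+NMN. In heat stress+NMN against control RAB4B (-0.57) and RAB11B (-0.66) were lower at adjusted P-values of 0.0827 and 0.083. RAB31, an endocytic RAB close to RAB22A, was higher there (0.22, adjusted P = 0.126) and against heat stress (0.18, adjusted P = 0.499). Genes with such low means rest on few fragments, and RAB4B and RAB31 were singled out after their values were seen.

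The RAB cycle was then read from 4 gene lists. Of the 135 listed regulators and effectors in the table, 28 reached 1 FPKM, beside 15.8% of all genes in the table. Among the GDP dissociation inhibitors, escort proteins and prenyl transferase genes, GDI2, an inhibitor that takes inactive RAB proteins off membranes, was lower in heat stress against control and in heat stress+NMN against control. Its FPKM was 4.47 and 5.65 in control, 3.59 and 3.27 in heat stress, and 3.37 and 3.55 in heat stress+NMN. Both controls exceeded all 4 heated samples, and the heated groups overlapped. The log2 fold change was -0.45 (SE 0.14, adjusted P = 0.169) under heat stress, lost without control 2 (-0.30) or heat 2 (-0.39). It was -0.44 (adjusted P = 0.0726) in heat stress+NMN against control, lost without control 2 (-0.29), NMN 1 (-0.41) or NMN 2 (-0.47).

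Of 11 tested exchange factors, TRAPPC4, a subunit of the TRAPP complexes that activate RAB1 and RAB11, had 3.78 and 5.37 FPKM in control, 2.60 and 2.48 in heat stress, and 1.33 and 1.22 in heat stress+NMN. The groups stepped down without overlap, and the log2 fold changes of -0.64, -0.64 and -1.28 (adjusted P = 0.137, 0.271 and 0.021) were called in all 15 alternatives. DENND4C, an exchange factor for RAB10, was higher in heat stress+NMN against control, at 3.83 and 3.41 against 1.80 and 1.62 FPKM (log2 0.77, adjusted P = 0.0371). In the list, 0, 1 and 3 genes were called higher and 1, 2 and 1 lower in the 3 comparisons (all tested genes: 12.7%, 7.15% and 25.6% higher and 10.1%, 6.45% and 15.7% lower), with medians of -0.04, 0.17 and 0.15.

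Of 8 tested GTPase-activating proteins, TBC1D10B, which acts on RAB35 and RAB27A among others, had 1.75 and 1.85 FPKM in control, 0.990 and 0.986 in heat stress, and 0.459 and 0.257 in heat stress+NMN. Its log2 fold change was -0.49 (adjusted P = 0.142) under heat stress, lost without control 2 (-0.47), -0.55 (adjusted P = 0.260) with NMN against heat stress, and -1.05 (adjusted P = 0.021) in heat stress+NMN against control. TBC1D7 was lower (-0.81, adjusted P = 0.0312) and TBC1D14, which works with RAB11 in autophagy, higher (0.44, adjusted P = 0.0392) in heat stress+NMN against control. With NMN against heat stress they were also called, TBC1D7 as lower (-0.56, adjusted P = 0.334), which was lost without heat 1 (-0.47) or NMN 1 (-0.37), and TBC1D14 as higher (0.31, adjusted P = 0.350), which was lost without heat 1 (0.29), heat 2 (0.34), NMN 1 (0.29) or NMN 2 (0.33). Of the 8, 0, 1 and 2 genes were higher and 1, 2 and 2 lower, beside the same shares of all tested genes (12.7%, 7.15% and 25.6% higher and 10.1%, 6.45% and 15.7% lower), with medians of -0.18, 0.19 and 0.07. Of 7 tested effectors, RAB11FIP2, which joins RAB11 to myosin V, had 0.643 and 0.493 FPKM in control, 1.13 and 1.32 in heat stress, and 1.34 and 1.65 in heat stress+NMN. Its log2 fold change was 0.50 (adjusted P = 0.142) under heat stress, lost without control 2 (0.44) or heat 2 (0.44), and 0.67 (adjusted P = 0.0305) in heat stress+NMN against control. Of the 7 effectors, 2, 0 and 2 were higher, beside 12.7%, 7.15% and 25.6% of all tested genes, and 0 were lower, with medians of 0.20, 0.06 and 0.26.

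**Figure D4:**
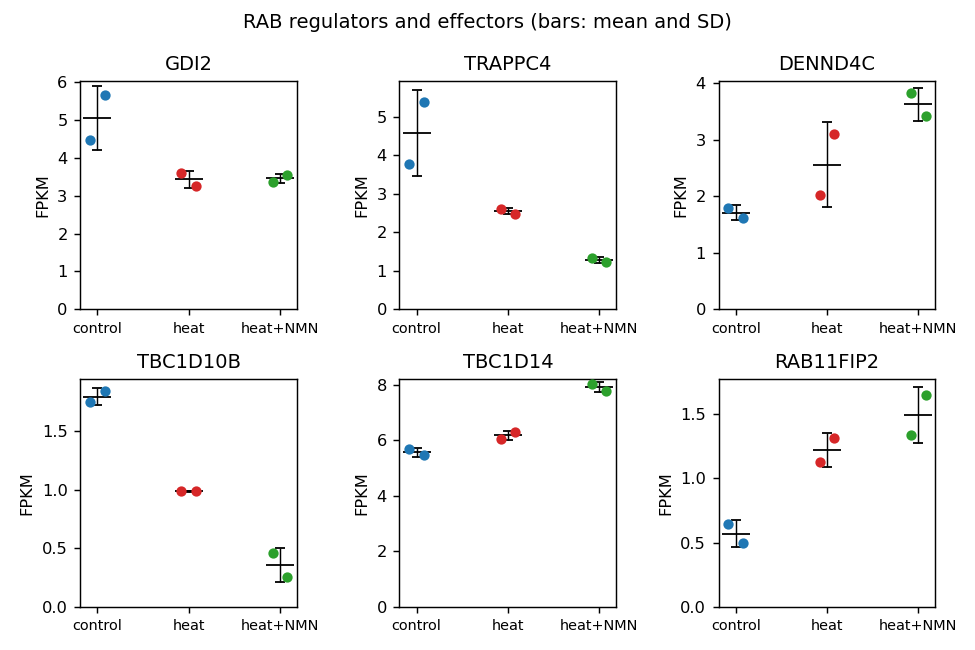
FPKM in each sample (points) with the group mean and SD (bars) for 6 regulators and effectors of RAB proteins: GDI2, TRAPPC4, DENND4C, TBC1D10B, TBC1D14 and RAB11FIP2, in control, heat stress and heat stress+NMN, 2 samples a group. TRAPPC4 falls from 3.78 and 5.37 FPKM in control to 1.33 and 1.22 in heat stress+NMN, and RAB11FIP2 rises from 0.643 and 0.493 to 1.34 and 1.65.

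The fold changes of the RAB genes moved with the base composition of their mRNAs. Across the 23 genes, which share the same libraries, log2 fold change and GC content had a Pearson r of -0.54, -0.52 and -0.61 in the 3 comparisons. Across all 4713 genes it was -0.40, -0.14 and -0.39. By Spearman rank correlation the values were -0.47, -0.43 and -0.47 for the RAB genes and -0.48, -0.13 and -0.42 for all genes. By rank, then, the RAB genes stood clearly apart from all genes only with NMN against heat stress. RAB5C has 58.3% GC and RAB5B 48.4%, whereas RAB33B (39.0%), RAB14 (40.5%), RAB10 (41.7%), RAB2A (43.5%) and RAB6A (43.9%) are poorer in GC, and RAB15 (55.2%) is a high-GC gene that was called higher. RAB24, RAB43 and RAB40C, with 60.1%, 61.6% and 62.8%, were the most GC-rich and had log2 fold changes of -0.78, -0.35 and -0.63 in heat stress+NMN against control without passing. Among all genes called in that comparison the median GC was 42.6% for the higher and 54.5% for the lower. After a GC correction chosen after seeing the data, the heat stress calls of RAB6A (log2 0.41) and RAB2A (0.23) were lost, as were RAB10 (0.30) and RAB14 (0.30) in heat stress+NMN against control and RAB33B (0.32) with NMN against heat stress. Among the regulators, the heat stress calls of GDI2, TBC1D10B and RAB11FIP2 were lost too, and that of GDI2 in heat stress+NMN against control. RAB5C stayed called in both comparisons, and RAB6A, RAB2A, RAB33B, RAB15 and RAB5B in heat stress+NMN against control. Under heat stress the corrected fit called 2 RABs, both lower: RAB5C and a member not called without the correction. Over all 4713 genes it called 353 higher and 374 lower there. The part of the GC content in the differences was not tested beyond this. Oocyte markers moved as well: 5 of 12 were lower under heat stress and 7 of 12 in heat stress+NMN against control, beside 10.1% and 15.7% of all tested genes, and their part in the RAB values was not tested.

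**Figure D5:**
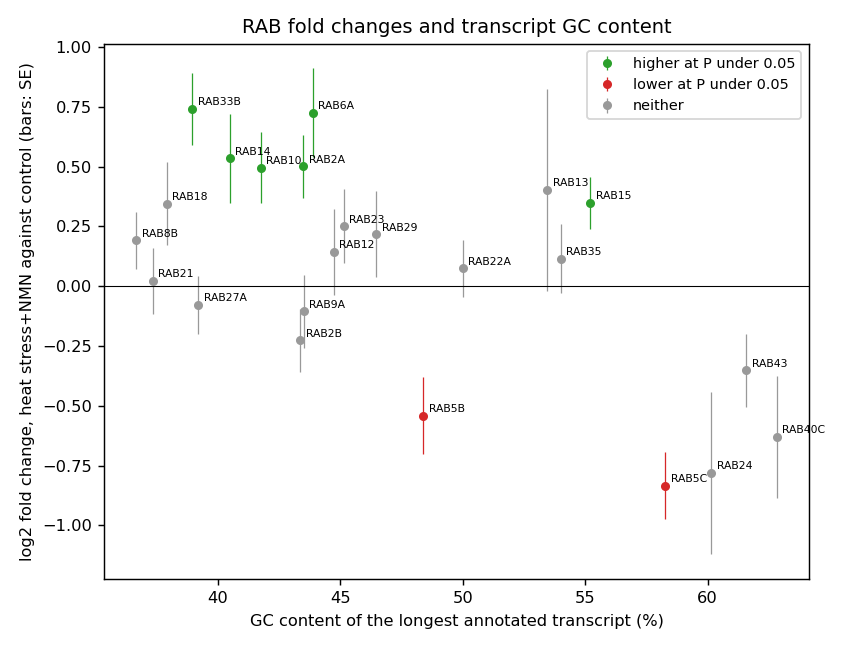
GC content (%) of the longest annotated transcript against the log2 fold change with its standard error in heat stress+NMN against control, 1 point for each of the 23 tested RAB genes, coloured by the unadjusted call. The called genes with positive fold changes lie between 39.0% and 55.2% GC and RAB5C lies at 58.3%.

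The adjusted calls were less stable than the unadjusted ones. The adjusted P of RAB5C in heat stress+NMN against control ranged from 0.0237 to 0.125 over its alternatives and passed in 9 of 15. It ranged from 0.0295 to 0.147 for RAB33B (8 of 15), from 0.0337 to 0.178 for RAB6A (5 of 16) and from 0.0467 to 0.222 for RAB2A (3 of 15). Without NMN 1, which left 1 NMN sample, 3 of the 8 RABs stayed called at an unadjusted P under 0.05: RAB6A, RAB33B and RAB5C.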

How the data were processed

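RNA from control, heat stress and heat stress+NMN porcine oocytes was analysed, 2 samples a group, assigned by their labels. The authors deposited FPKM for 29861 genes in each sample. They trimmed reads with cutadapt and aligned them with tophat2 to susScr11, and the submitters' processing notes name Cufflinks 2.2.1, Cuffnorm and Cuffdiff. Columns with the authors' own group FPKM, fold changes and P-values were not used. Each FPKM column was matched to its sample by name.

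FPKM were log2-transformed after adding 1, and the 4713 genes with a mean of at least 1 FPKM were fitted as 1 model of the 3 groups with limma 3.58.1 in R 4.3.3, with a variance trend and Benjamini-Hochberg adjustment over all of them. A gene was called at an unadjusted P under 0.05, with the adjusted P beside it. On simulated data for heat stress against control, with 200 of 4713 genes changed by 2 on the log2 scale, 196 were called, all 200 had the right sign, and 4.65% of unchanged genes were called. The planted changes exceed those of the tested RABs, which ran from -0.83 to 0.74 in heat stress+NMN against control. The noise was normal with the fitted spreads. The simulation therefore checks the code, and not the power or error rate for the RAB genes.

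RABs called in any comparison with groups that did not overlap, and the 3 highest, were described in full. RABs below 1 FPKM were given by count and range, with the nearest 3, those at 0 and the RAB3 and RAB27 genes named. RAB24 and RAB40C were added after their values were seen. The members, classes and lists were chosen with earlier results of these data known. GC content, UTRs and sequences came from the RefSeq annotation of Sscrofa11.1, whose gene positions match the table. A shared listed locus means overlapping gene models. Alternatives were another pseudocount, other minimum levels, quantile and median scaling, a replicate block, no variance trend, a fit of only the groups compared, each sample left out and a GC correction by loess (span 0.5). A regulator of the RAB cycle is not reported here. Without counts no interval for depth is given. Python 3.11.15, pandas 2.3.3 and Biopython 1.88 were used.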

Additional observations from a re-analysis of the deposited data

How the results depend on the processing

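None of the 185 alternative values of called RABs changed sign, and 53 of 874 of the others did. For single genes described in full, 436 alternatives gave the same side of the threshold and direction, 43 were no longer called, 19 were newly called and 12 changed sign. The last were all uncalled values. For RAB24 under heat stress the log2 fold change became 0.012 with the GC correction and with that correction plus the replicate block, and ran from -0.50 to 0.060 with 1 sample left out. For RAB35 it ran from -0.049 to 0.26 under heat stress and from -0.15 to 0.16 with NMN against heat stress, where it was -0.051 with quantile normalization and -0.014 with median scaling. For RAB40C it ran from -0.75 to 0.0095 and from -0.64 to 0.12, and for RAB14 with NMN against heat stress from -0.11 to 0.32.

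The count of called RABs in heat stress against control (3) was 5 at a minimum mean of 0.1 FPKM, 1 at 5 FPKM, 5 with quantile normalization, 1 when only the 2 groups were fitted, 1 with GC correction and replicate block, and 1 to 4 with 1 sample left out. With NMN against heat stress (1) it was 0 with a pseudocount of 0.1, 3 at a minimum of 0.1, 0 at 5, 2 with the replicate block, 0 with only the 2 groups and 0 to 2 with 1 sample left out. In heat stress+NMN against control (8) it was 4 at a minimum of 5 and 3 to 9 with 1 sample left out. Over all genes, the 3 counts (1074, 641 and 1948) were 1865, 1161 and 3236 at a minimum of 0.1, 468, 266 and 791 at 5, and 648 to 1015, 327 to 701 and 1233 to 1941 with 1 sample left out. The first was 614 with GC correction and replicate block. Lower and higher minimums test more and fewer genes. The cause of the other shifts was not tested.

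The endocytic median under heat stress was -0.035 at a minimum of 0.1, -0.081 at 5 and from -0.25 to -0.0058 with 1 sample left out. With NMN against heat stress it was 0.065 at 5, and in heat stress+NMN against control -0.50 with a pseudocount of 0.1, -0.0034 at a minimum of 0.1 and -0.015 at 5. The recycling median was 0.12 at a minimum of 0.1 in heat stress+NMN against control and ran from -0.11 to 0.19 with NMN against heat stress. The replicate numbers did not pair the samples (correlation of deviations -0.032, -0.014 and 0.0080 over 4713 genes). With the replicate as a block, 4, 2 and 10 RABs and 937, 527 and 1815 genes were called. The RAB2A call under heat stress (log2 0.33) was lost with the block, and that in heat stress+NMN against control with the block and GC correction (0.36). RABs near 1 FPKM rest on few fragments, and 2 samples a group limit every P-value.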
